A study of Homo sapiens with 7 samples.

Results

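The 53 clustered protocadherin genes lie side by side on chromosome 5, in an alpha cluster of 15 genes, a beta cluster of 16 genes and a gamma cluster of 22 genes, and were taken by symbol from 20163 protein coding genes. CTCF binding at these genes was examined in K562, an established human erythroleukemia cell line that serves as the only cell line of the experiment. ChIP-seq, the sequencing of DNA recovered with an antibody, was carried out in non-treated (control) cells and in cells treated with 10 μM pyridostatin (PDS), a small molecule that stabilizes G-quadruplexes (G4s), for 24 h. Control cells gave 2 CTCF samples and 1 sample with nonspecific IgG, PDS-treated cells gave 2 of each kind, 7 in all, and the study compared CTCF positions with and without the ligand.

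The deposited data used here are 2 peak lists, 1 per condition, each called jointly on both CTCF replicates over the IgG of that condition. Whether the control list rests on 1 or 2 IgG samples is not clear, since 1 is among the samples given. The control list held 33094 peaks and the PDS list held 32917 peaks. No values per replicate and no read counts are in the lists. No peak in either list had a p-value above 1e-05, a far stricter limit than the cutoff that the methods name for the peak caller. Depth is unknown, no difference between the conditions could be tested, and the absence of a peak from a list means only that no peak there passed that limit, not that CTCF was absent from the site. Shares are given with Wilson 95% confidence intervals, which cover counting error only. Peak lists of CTCF do not measure expression, so the cell line label was not checked against marker genes.

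Clustered protocadherins are cell surface adhesion proteins that give neurons individual identities. In the alpha and gamma clusters each variable exon has its own promoter, encodes the extracellular and transmembrane parts of a protein, and is spliced to 3 constant exons shared by the whole cluster, so that the choice of promoter sets the protein made. Beta genes consist of a single coding exon without constant exons. The C-type genes (PCDHAC1, PCDHAC2, PCDHGC3, PCDHGC4 and PCDHGC5) stand closest to the constant exons and are regulated differently from the others. CTCF is a zinc finger protein known to bind at many of the variable promoters, where a conserved sequence element with the letters CGCT lies, and at enhancers downstream. The orientation of its sites is known to matter for the loops it anchors. The cells used are not neurons, and nothing about transcription of the genes was measured.

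The sequences that the binding data bear on come first. The promoter element was searched in GRCh37 (hg19) as the letters CGCTG on the strand of the gene, from 300 to 100 bp before the start codon. These letters were found before 42 of the 53 genes (79.2%, 66.5 to 88.0%), whereas the same window held them in 19.9% of all protein coding genes. On the other strand they were found before 11 members (20.8%) and in 21.1% of all coding genes. Over 46 elements the median position relative to the start codon was -230 bp, in a range from -270 to -128 bp. The bases before these letters differed between the alpha, beta and gamma clusters, which 6 promoters bound in both lists illustrate, with the letters CGCTG in capitals.
PCDHA2: ttagccacatgatgtCGCTGtc
PCDHB9: gaagccacaaggtggCGCTGca
PCDHB10: gaggccacacggtggCGCTGca
PCDHGA2: taggcctctgagcgtCGCTGtt
PCDHGA10: taggactctgagcgcCGCTGtt
PCDHGB6: ggagcctctgggcgcCGCTGtc

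The lines cover chr5:140174367-140174388 (PCDHA2), chr5:140566649-140566670 (PCDHB9), chr5:140571873-140571894 (PCDHB10), chr5:140718271-140718292 (PCDHGA2), chr5:140792499-140792520 (PCDHGA10) and chr5:140787492-140787513 (PCDHGB6), all on the forward strand, on which all 53 genes lie. The 9 letters ATGTCGCTG stood before 7 of the 13 alpha genes PCDHA1 to PCDHA13 and before 0.0496% of all coding genes. The form GTGGCGCTG stood before 13 of 16 beta genes and before 0.248% of all coding genes. In the gamma cluster GCGCCGCTG stood before 7 of 12 gamma A and 4 of 7 gamma B genes, against 0.422% of all coding genes. The gamma A and gamma B genes thus share this form, and none of the 5 C-type genes held any of these 3 forms. The letters were chosen after the data had been seen, and a match of letters is a description of the sequence, not evidence of binding.

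CTCF peaks were dense over the clusters. The region from 100 kb before PCDHA1 to 100 kb past the last gamma gene (chr5:140065721-140992544, hg19) held 40 control and 43 PDS peaks, or 43.2 and 46.4 peaks per Mb. Chromosome 5 as a whole held 9.36 and 8.76 peaks per Mb, and all chromosomes together 10.7 and 10.6. The peaks covered 48 separate positions, of which 35 were found in both lists, 5 in the control list only and 8 in the PDS list only. Of the control peaks 87.5% (73.9 to 94.5%) overlapped a PDS peak by at least 1 bp, and of the PDS peaks 81.4% (67.4 to 90.3%) overlapped a control peak. The whole lists gave 78.0% and 78.6%, within these intervals. The peaks were narrow, with a median width of 240 bp in the control and 200 bp in the PDS list against 360 and 300 bp in the whole lists.

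**Figure D1:**
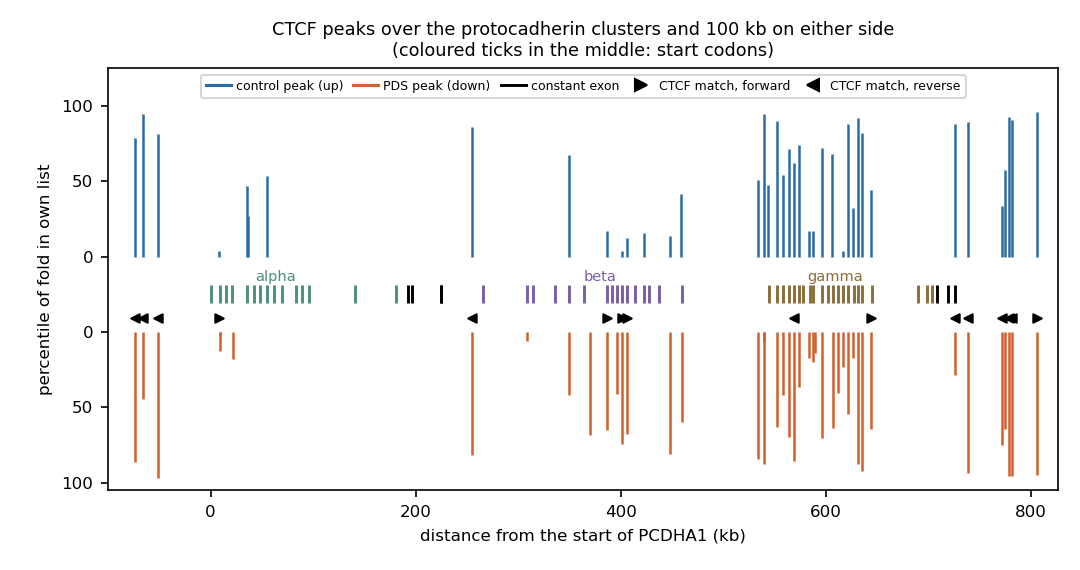
Position of each CTCF peak (x axis, kb from the start of PCDHA1) and percentile of its fold enrichment within its own list (y axis, control upwards and PDS downwards), with start codons, constant exons and the strand of CTCF sequence matches in the middle. The 40 control and 43 PDS peaks crowd over the gamma variable exons, and a stretch of 199.9 kb from PCDHA8 to the area past the alpha constant exons holds no peak of either list.

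The members were assigned peaks over a zone from 1 kb before the start codon to the end of the first coding exon, which is the variable exon in the alpha and gamma clusters. The control list held a peak at 25 members (47.2%, 34.4 to 60.3%) and the PDS list at 25 as well, with 21 of them in both lists (39.6%, 27.6 to 53.1%). Among all protein coding genes the same zone held a control peak in 14.6%, a PDS peak in 13.9% and both in 12.6%. The zones are not equally long, since the first coding exon has a median of 2397 bp in the members and of 124 bp in all coding genes. With a window of equal length, 1 kb on either side of the annotated gene start, 24 members had a control peak (45.3%), 24 had a PDS peak (45.3%) and 20 had both (37.7%), against 22.2%, 20.9% and 19.3% of all coding genes. This window missed PCDHGA8 in both lists. The centres of its control and PDS peaks lie 2516 and 2526 bp past its annotated gene start, and at -140 and -130 bp from its start codon. When each list was reduced to the 50% of its peaks that had the lowest p-values, 9 of the 53 members had a peak in the zone in each list and 7 in both. Among all coding genes, whose zones are shorter, 9.17% had one in the control and 9.68% in the PDS list. For the reduced lists no share of all coding genes was computed for both lists together or for the window of equal length.

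The share of bound genes varied by subfamily. It was highest among the gamma A and gamma B genes, and the C-type genes had no peak in either list (0 of 5, which allows up to 43.4%). Gamma B genes were bound in 71.4% (35.9 to 91.8%) of 7 in the control and 85.7% (48.7 to 97.4%) in the PDS list, and beta genes in 37.5% (18.5 to 61.4%) of 16 and 43.8% (23.1 to 66.8%). The order is a description of these 2 lists, in which the intervals of neighbouring subfamilies overlap. The intervals of gamma A and of the alpha genes PCDHA1 to PCDHA13 do not overlap in either list, with 91.7% (64.6 to 98.5%) of 12 against 23.1% (8.18 to 50.3%) of 13 in control cells and 83.3% (55.2 to 95.3%) against 15.4% (4.33 to 42.2%) in PDS-treated cells.

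**Figure D2:**
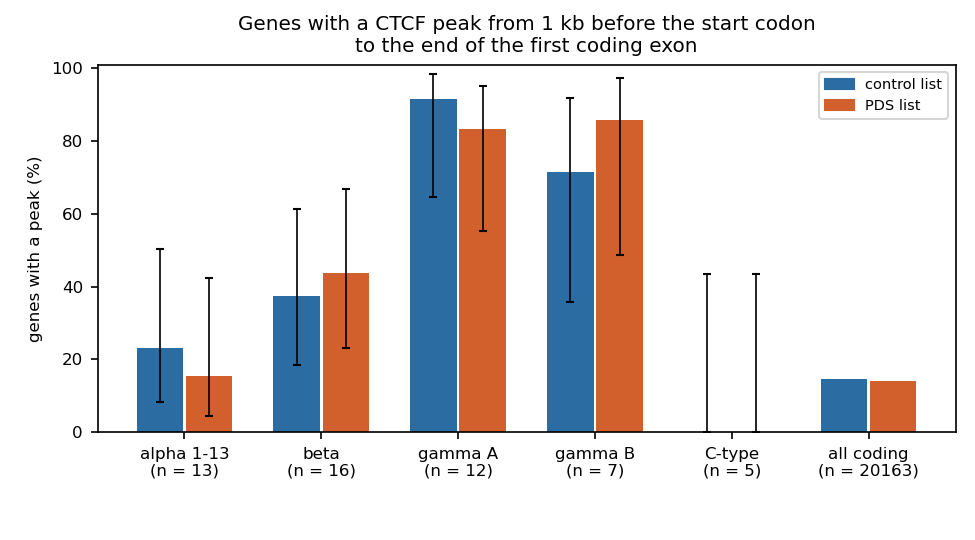
Share of genes (y axis, percent) with a CTCF peak between 1 kb before the start codon and the end of the first coding exon, by subfamily and for all protein coding genes, with Wilson 95% intervals for counting error. In both lists the gamma A and gamma B genes stand above the alpha and beta genes, and the 5 C-type genes have none.

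The centres of the peaks in the zones lay shortly before the start codon. In the control list 25 of 26 centres were before it, and the median position was -167 bp. In the PDS list 24 of 27 were before it, and the median was -144 bp. All 21 members bound in both lists held the CGCTG letters. Of the 42 members that hold them, 28 had a peak in at least 1 list, whereas of the 11 members without them 1 had a peak in either list (PCDHA4, in the coding exon) and none in both. This contrast is mixed with the subfamily, because 17 of the 28 are gamma A or gamma B genes, all 19 of which hold the letters. Among PCDHA1 to PCDHA13 the counts were 3 of 7 genes with the letters and 1 of 6 without them. The letters themselves lay under a control peak at 24 of the 46 elements and under a PDS peak at 17. Where a peak was within 300 bp, the letters stood at a median of -59 bp from the centre of the control peak (25 genes) and of -86 bp from the centre of the PDS peak (24 genes), negative meaning upstream. They stood before the centre at 21 of the 25 and 21 of the 24 genes, so most of these peaks are centred towards the start codon from the element. Elsewhere in the genome forward matches of the CTCF consensus had a median of -15 bp in the control and -21 bp in the PDS list. Of these, 1834 of 3055 and 1552 of 2614 stood before the centre. In such signed medians offsets on either side of the centre cancel, and absolute distances were not compared.

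**Figure D3:**
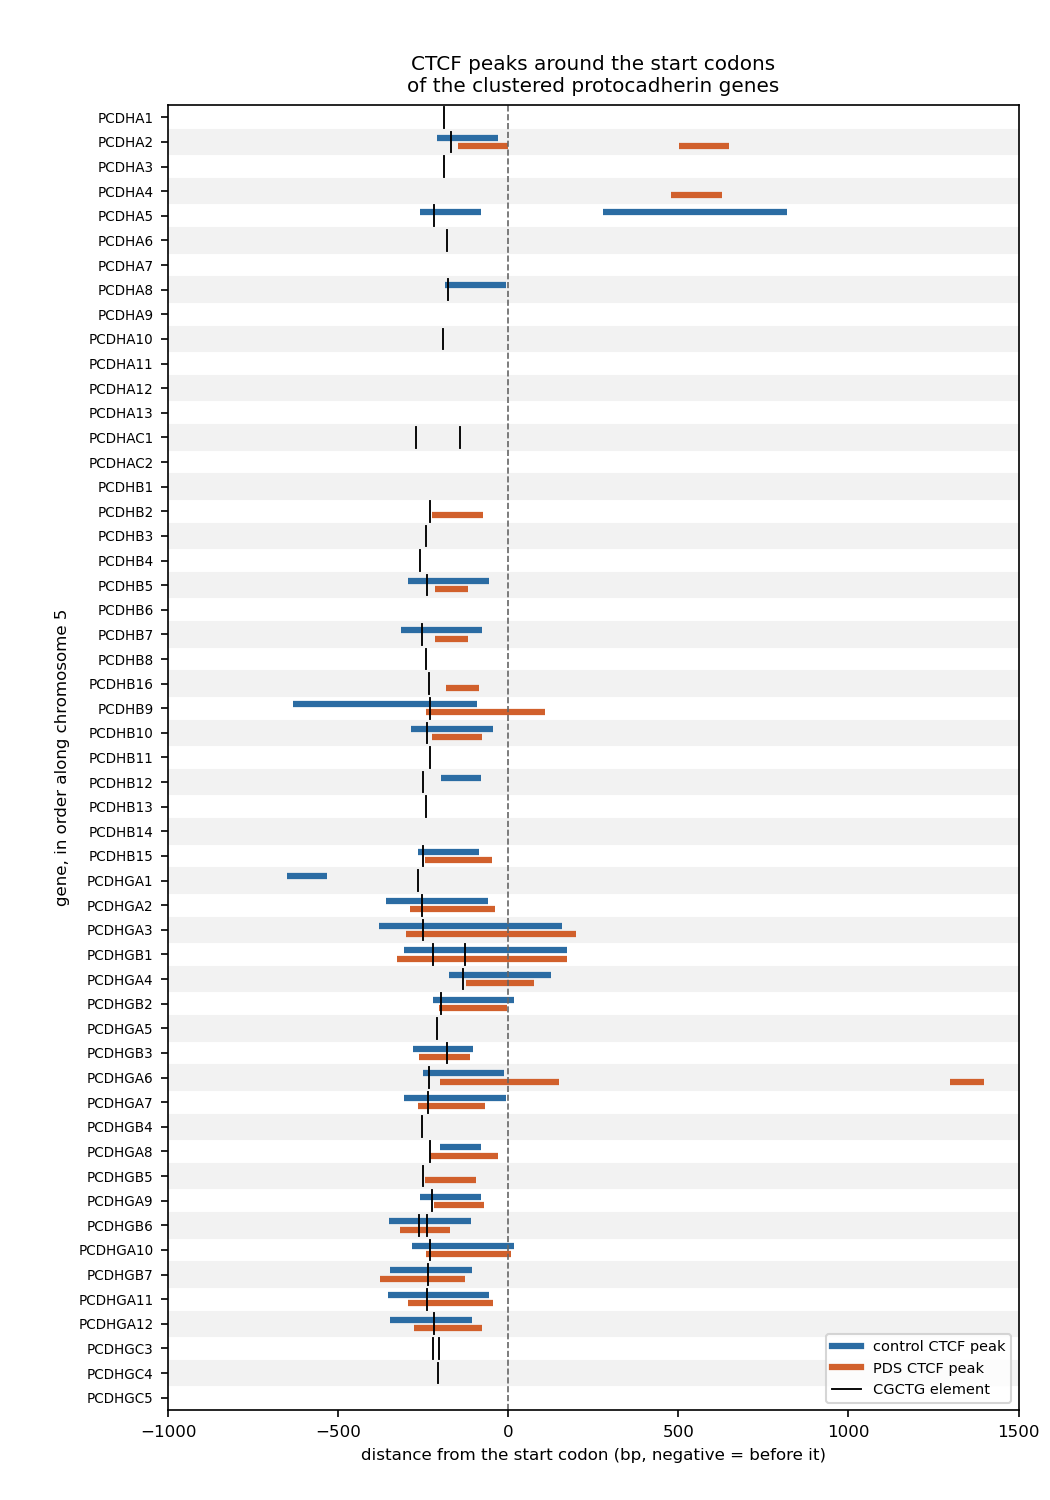
CTCF peaks of the control (blue) and PDS (orange) list relative to the start codon (x axis, bp) for the 53 genes in their order along the chromosome (y axis), with CGCTG elements as black ticks. The bars cluster shortly before the start codon beside the ticks, most densely in the gamma genes, and 4 genes have a peak inside the coding exon.

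In the alpha cluster PCDHA2 was the only gene of PCDHA1 to PCDHA13 with a peak in both lists. Its promoter peaks were weak, with a fold enrichment over IgG of 7.75 in the control and 6.19 in the PDS list. Only 3.68% and 1.91% of the peaks of the respective list had a lower fold. These percentiles rank a peak within its own list and are used from here on, because each list is relative to its own IgG and the folds were not compared between conditions. The p-value of the peak caller ordered the lists differently. At 13 of the 21 promoters bound in both lists it was smaller in the list in which the fold percentile was lower, so that the differences in percentile given here do not describe stronger or weaker binding. PCDHA5 and PCDHA8 had promoter peaks in the control list only, at percentiles 46.9 and 53.3 with a fold of 25.6 and 27.6, and PCDHA5 had a second control peak of fold 19.0 at percentile 26.9. PCDHA4 had a peak in the PDS list only, of fold 10.8 at percentile 17.6, and it lay inside the coding exon. The other 9 of these genes had no peak. A peak-free stretch of 199.9 kb begins right after the PCDHA8 peak and holds 8 variable exons, those of PCDHA8 to PCDHA13 and of the C-type genes PCDHAC1 and PCDHAC2.

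Peaks inside a coding exon were seen at PCDHA5 in the control list and at PCDHA2, PCDHA4 and PCDHGA6 in the PDS list. The centres of the 3 alpha peaks lay 550, 576 and 553 bp past the start codon, respectively. Before these centres, 460 or 463 bases past the start codon, the exons hold an element close to the CTCF consensus, shown for 6 genes with the 15 bases of the consensus in capitals and 3 bases on either side in lower case.
PCDHA2: tttCCTCTAGAGGGAGCAtct
PCDHA4: tttCCACTAGAGGGCGCCtcg
PCDHA5: tttCCGCTAGAGGGCGCGtcg
PCDHA7: tttCCACTAGAGGGCGCGtcc
PCDHA12: tttCCTCTAGAGGGCGCTtct
PCDHA13: tttCCACTAGATGGCGCAtcc

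These elements lie in the coding exons, on the forward strand, at chr5:140175003-140175023 (PCDHA2), chr5:140187226-140187246 (PCDHA4), chr5:140201811-140201831 (PCDHA5), chr5:140214422-140214442 (PCDHA7), chr5:140255511-140255531 (PCDHA12) and chr5:140262307-140262327 (PCDHA13). They were scored with a weight matrix of 21 bases, built from CTCF consensus sites in peaks elsewhere and rebuilt 3 times from its own matches, with a threshold of 9.88 bits that 5% of 200 bp windows beside peaks reach. A forward match centred 450 to 470 bases into the exon was present in 12 of the 13 genes PCDHA1 to PCDHA13, and PCDHA1 scored 8.74 bits. No beta, gamma or C-type gene held one there, and among 3203 other coding genes with a long enough first coding exon 0.531% did. The matrix before rebuilding found 7 of the 13, with PCDHA4 among them but not PCDHA2 (2.76 bits) or PCDHA5 (7.37 bits). The window was set after the sequences had been seen. The score was highest in PCDHA4 (17.1 bits), whose PDS peak begins 5 bp past the element, and PCDHA11, PCDHA12, PCDHA7, PCDHA9 and PCDHA13 scored from 15.1 to 15.7 bits without a peak in either list. The PCDHA2 element also ends before its PDS peak, which begins at chr5:140175051, whereas the PCDHA5 element lies under its control peak.

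**Figure D4:**
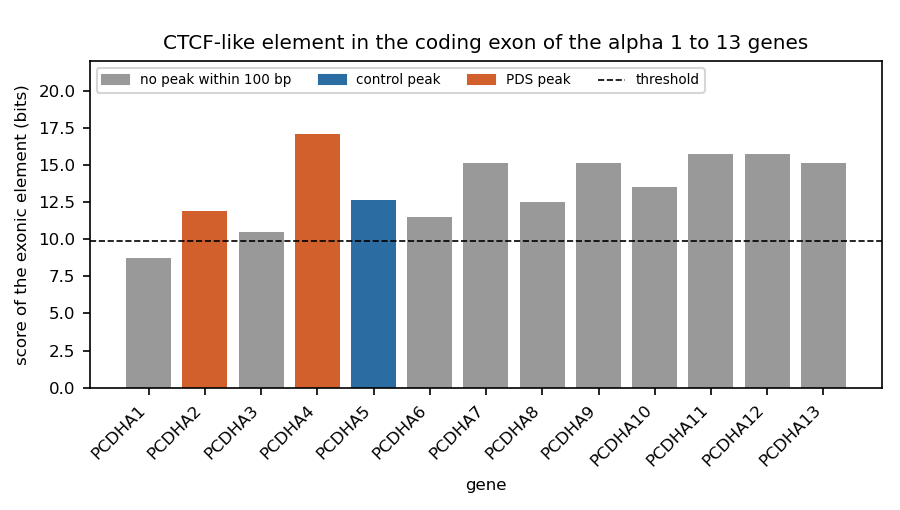
Score (y axis, bits) of the best forward CTCF match centred 450 to 470 bases into the coding exon of PCDHA1 to PCDHA13 (x axis), coloured by whether a control or PDS peak lies within 100 bp, with the threshold of 9.88 bits as a dashed line. All genes but PCDHA1 exceed the threshold, and peaks lie at PCDHA2 and PCDHA4 in the PDS list and at PCDHA5 in the control list.

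In the beta cluster 5 of 16 genes were bound in both lists, namely PCDHB5, PCDHB7, PCDHB9, PCDHB10 and PCDHB15. PCDHB12 was bound in the control list only, at percentile 16.1, and PCDHB2 and PCDHB16 in the PDS list only, at percentiles 6.20 and 41.0. The 8 other beta genes had no peak, among them PCDHB1, PCDHB6 and PCDHB14, which lack the CGCTG letters. Within their lists PCDHB7, PCDHB9 and PCDHB10 ranked low in control cells and in the upper part of the list in PDS-treated cells. PCDHB9 stood at percentile 3.93 with a fold of 7.85 in the control list and at percentile 74.3 with a fold of 22.2 in the PDS list. The p-values of the peak caller ran the other way for PCDHB9, with 5.12e-09 in the control and 5.54e-08 in the PDS list. Its peaks overlapped by 150 bp, their centres were 295 bp apart, and with an overlap of 50% of both peaks or centres at most 100 bp apart they were not shared. Among the 21 promoters bound in both lists, 3 (PCDHB5, PCDHB7 and PCDHB9) fell short of that overlap. The centres were farther apart than 100 bp at 2 (PCDHB9 and PCDHGA6). PCDHB10 stood at percentiles 12.2 and 67.5, also against its p-values of 9.74e-08 and 1.80e-06. PCDHB7 stood at 17.3 and 65.4, with p-values of 2.52e-06 and 3.07e-07, whereas PCDHB5 ranked higher in control cells, at 67.5 against 41.8. PCDHB15 had percentile 41.7 in the control and 60.1 in the PDS list. With 1 list per condition, none of these differences can be set against the spread between replicates.

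The beta pseudogenes, copies that no longer encode a protein, were in part bound as well. PCDHB18P had a peak within 1 kb of its start in both lists and PCDHB17P in the PDS list only, whereas PCDHB19P had none. PCDHA14 in the alpha cluster and PCDHGB8P and PCDHGB9P in the gamma cluster also had none.

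The gamma cluster carried most of the bound promoters. Of 12 gamma A genes 10 were bound in both lists, PCDHGA1 was bound in the control list only and PCDHGA5 in neither. The PCDHGA1 peak was centred at -591 bp from the start codon, farther than the other promoter peaks, and the CGCTG letters of PCDHGA1 were not under it. Of 7 gamma B genes 5 were bound in both lists, PCDHGB5 was bound in the PDS list only at percentile 40.7, and PCDHGB4 in neither. All 19 genes of these subfamilies hold the CGCTG letters, PCDHGA5 and PCDHGB4 included. Over every place where the letters were found, the bases around them were less alike in gamma B. Between pairs of elements of a subfamily a median of 9 of the 22 bases were identical in gamma B and 10 in the C-type genes, against 18 in PCDHA1 to PCDHA13, 17 in the beta and 18 in the gamma A genes, the letters CGCTG included. The 9 gamma B elements belong to 7 genes, since PCDHGB1 and PCDHGB6 each hold a second one, and the 5 C-type elements belong to 3 genes. A median without the second elements, or without PCDHGB3 and PCDHGB7, was not computed. The gamma B value thus does not show that the promoter elements of these genes differ from one another. The elements of PCDHGB4 and PCDHGB5 were identical, as were that of PCDHGB7 and the second of PCDHGB6. Besides the form GCGCCGCTG given above, GCGTCGCTG stood before 2 gamma A genes and 1 gamma B gene (PCDHGB2), against 0.139% of all coding genes. The form GTGTCGCTG stood before 3 gamma A genes, against 0.0843%. Before PCDHGB3 and PCDHGB7 and in the second elements of PCDHGB1 and PCDHGB6 the letters are not part of any of these forms. The other gamma B elements all hold GCGCCGCTG or GCGTCGCTG, and the median of gamma B mixes the 2 kinds.

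The promoter peaks of the family with the highest folds were gamma peaks in both lists. PCDHGB7 reached a fold of 56.8 in the control list, at percentile 92.2, and 27.8 in the PDS list, at 87.6. PCDHGA11 had a fold of 43.1 in the control list, at percentile 82.4, and 31.2 in the PDS list, at 92.1, the highest PDS percentile among the members. PCDHGA2 and PCDHGB6 stood high in the control list, at percentiles 89.9 and 88.2, and at 62.9 and 54.7 in the PDS list, though for PCDHGA2 the p-value was smaller in the PDS list (7.28e-11 against 4.37e-09). Low folds were seen at PCDHGA9, at percentiles 3.78 and 23.5, at PCDHGB3, at 16.9 in both lists, and at PCDHGA6, at 17.4 and 19.7. A low fold did not mean a large p-value, since that of the PCDHGB3 peak, 1.43e-12 by the peak caller, was the smallest of the 40 control peaks of the region, and it was 1.42e-11 in the PDS list. PCDHGA6 also had a PDS peak 1350 bp past the start codon, at percentile 13.6, without a control peak there.

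Of the remaining gamma genes bound in both lists, PCDHGA7 and PCDHGB1 had nearly the same percentile in both lists, 72.4 and 70.5 for the former and 71.7 and 69.8 for the latter. PCDHGA8 stood at 68.2 in the control and 63.9 in the PDS list, PCDHGA3 at 54.4 and 42.1, and PCDHGA10 at 32.1 and 17.5. PCDHGB2 was lower in the PDS list, at 36.6 against 74.4, but with a p-value of 4.13e-09 there against 4.21e-08. In contrast, PCDHGA4 was higher in the PDS list, at 85.8 against 62.2, as was PCDHGA12, at 64.5 against 44.6. Over the 21 promoters bound in both lists 11 ranked higher among control peaks and 10 among PDS peaks, and the folds correlated with Spearman's rho of 0.43 and Pearson's r of 0.55 on the log2 scale. Over all 35 positions of the region found in both lists the values were 0.51 and 0.57. These correlations are across sites of the same 2 lists and describe them only.

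**Figure D5:**
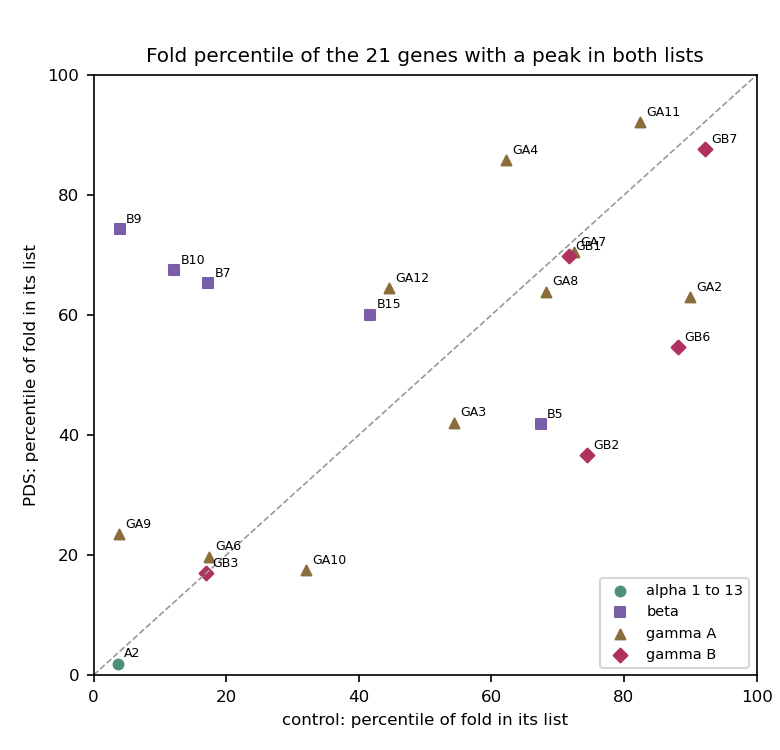
Percentile of fold enrichment within the control list (x axis) and within the PDS list (y axis) of the promoter peak of the 21 genes with a peak in both lists, with equal percentiles on the dashed line. PCDHB7, PCDHB9 and PCDHB10 lie far above the line, PCDHGB2, PCDHGB6 and PCDHGA2 below it, and 11 of the 21 points lie below it in all.

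None of the C-type genes had a peak in the zone, in either list. PCDHAC1, PCDHGC3 and PCDHGC4 hold the CGCTG letters and PCDHAC2 and PCDHGC5 do not. Their promoters were richer in GC than the rest, with a median of 57.0% and a minimum of 55.1% GC in 1 kb around the start codon. The highest value among the other members was 51.7%, in gamma B, and the median over all 53 genes, C-type included, was 46.6%. The gamma C-type genes lie in a peak-free stretch of 81.15 kb between PCDHGA12 and the last gamma constant exon.

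Of the constant exons, which every protein of a cluster shares, the last gamma exon (chr5:140890514-140892542) carried a peak in both lists and the alpha constant exons carried none. The gamma peak was 900 bp wide in both lists and stood at percentile 88.2 in the control and at 28.3 in the PDS list. Its p-value by the peak caller was 4.52e-11 in the control and 3.48e-23 in the PDS list, where it was the smallest of the 43 peaks of the region, so the fold rank and the p-value ran in opposite directions. It was the only peak of the region that held a G4 motif. Downstream of the alpha constant exons a single position was found in both lists, at percentiles 85.9 and 81.8, at -10059 bp from the start of PCDHB1 and outside named annotated genes. Downstream of the gamma constant exons all 6 positions were found in both lists, at exons and introns of DIAPH1, a formin that assembles actin filaments. Their median percentile was 90.3 in the control and 94.3 in the PDS list, against 47.1 and 42.1 for the peaks of the variable exon zones. Before the alpha cluster 3 positions near the vault RNA genes VTRNA1-1, VTRNA1-2 and VTRNA1-3 were also in both lists.

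Between the beta and gamma clusters peaks stood at the exons of TAF7, a subunit of the general transcription factor TFIID, at percentiles 50.9 and 84.1. A further position, at -4161 bp from the start of PCDHGA1, stood at percentiles 94.6 and 87.5. A second PDS peak, at -4681 bp from the same start, stood at percentile 6.42, without a control peak.

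CTCF sequence matches were mostly forward, the direction of the genes, at the promoters and mostly reverse past the constant exons. They were scored with the weight matrix before rebuilding, at a threshold of 8.38 bits, over the whole of each position. In the variable exon zones 6 of 32 positions held a match, 5 forward and 1 reverse. The last gamma constant exon and the position past the alpha constant exons each held a reverse match, and of the 6 positions past the gamma constant exons 5 held a match, 4 reverse and 1 forward. All 3 positions before the alpha cluster held a reverse match. With the rebuilt matrix the zones held 8 forward and 1 reverse match, and the counts past the constant exons and before the alpha cluster were the same. The positions combine overlapping peaks of both lists. Of the matches at positions found in both lists, the 6 in the zones lay wholly inside the control peak and none lay wholly inside the PDS peak, which at PCDHB9 begins 1 base into the match. The 7 past the variable exons lay inside the peaks of both. Peak borders fall on steps of 60 bp in the control and 50 bp in the PDS list, with least widths of 120 and 100 bp, and the part of these steps in the contrast was not tested. Of these 13 matches 9 are shown, those that include the promoter element and 5 past the variable exons, read in the direction of the match, with the 15 consensus bases in capitals.
PCDHA2, forward: tagCCACATGATGTCGCTgtc
PCDHB7, forward: aaaACGCAAGGTGGCGCTgct
PCDHB9, forward: aagCCACAAGGTGGCGCTgca
PCDHB10, forward: aggCCACACGGTGGCGCTgca
past the alpha constant exons, reverse: ctgCCACCAGGTGGCAGGtgg
last gamma constant exon, reverse: tggCCACTAGGGGGCGCActg
DIAPH1 exon, reverse: cagCCAGCAGGTGGCGCTggg
DIAPH1 intron, reverse: tgtCCACTAGGTGGCACTcac
DIAPH1 intron, forward: agtCCAACAGAGGGCAGCaac

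Their coordinates are chr5:140174368-140174388, chr5:140552149-140552169, chr5:140566650-140566670, chr5:140571874-140571894, chr5:140420951-140420971, chr5:140892064-140892084, chr5:140904455-140904475, chr5:140947259-140947279 and chr5:140971768-140971788, in the order printed. At the 4 promoters the match includes the CGCT letters of the element. The scores were 9.0 bits at PCDHA2, 9.92 at PCDHB7, 18.8 at PCDHB9 and 13.5 at PCDHB10. Past the constant exons they were 15.4 bits at the alpha position, 16.6 at the gamma constant exon, and 20.7, 20.4 and 17.8 at DIAPH1. The other matches in the zones lay at PCDHGA12 (forward) and 105 bp past the start codon of PCDHGA4 (reverse).

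Fewer peaks of the region than elsewhere held a match to the matrix, but this depended on how a match was defined. In the 200 bp at the peak centre 27.5% of control peaks (16.1 to 42.8%) and 18.6% of PDS peaks (9.74 to 32.6%) held one, whereas outside the region the shares were 52.4% and 40.6%. The intervals of the region do not include the shares outside it. The matrix was built, and later rebuilt, from the peaks outside the region, which were then scored with it. The peaks of the region had no part in it, so the 2 sides were not measured alike. Without the 100 kb on either side, 16.1% of control peaks (7.09 to 32.6%) and 5.88% of PDS peaks (1.63 to 19.1%) held a match. The CGCTG letters of the promoters stood at a median of -59 bp from the control and -86 bp from the PDS peak centre. A match there can fall partly outside the 200 bp, and the part of this in the lower shares was not tested. Searched over the whole peak, 40.0% of control and 23.3% of PDS peaks of the region held one, and no share outside the region is given for that search. With the rebuilt matrix the shares were 37.5% and 23.3% against 59.8% and 46.3%. The consensus with at most 1 mismatch gave 22.5% and 23.3% against 43.2% and 33.9%. The consensus without mismatch gave 7.50% of control peaks against 13.5% outside, and for PDS peaks the order turned, with 11.6% in the region against 9.76% outside. In the 200 bp at the peak centre PCDHGA12 was the only gamma A or gamma B gene with a match to the matrix before rebuilding, in the control list, and that match did not cover the CGCTG letters.

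Because the ligand stabilizes G4s, G4 motifs were searched on both strands as 4 G runs, each at least 3 long and separated by loops of 1 to 7 nt. A motif lay inside 1 of 40 control peaks (2.50%, 0.443 to 12.9%) and 1 of 43 PDS peaks (2.33%, 0.412 to 12.1%) of the region, that of the last gamma constant exon. The whole lists gave 14.95% and 16.07%, and peaks within 1 kb of other coding gene starts gave 35.0% and 33.8%. Counting motifs within 1 kb of the peak as well, 2 peaks in each list had one, 5.0% (1.38 to 16.5%) and 4.65% (1.28 to 15.5%), against 43.5% and 46.4% of the peaks outside the region. The median GC content at the peak centre was 48.3% and 50.5% in the variable exon zones, 47.0% and 49.5% over all peaks of the region, 52.0% and 53.0% in the whole lists, and 66.5% and 64.5% at peaks near other coding gene starts. Within the zones of the 53 genes 17 motifs were found in 15 genes. Of these, 12 lay in the coding exons of 11 beta genes, at a median of 1491 bp past the start codon, away from the promoter peaks, and 3 lay before the start codons of the C-type genes PCDHAC2 and PCDHGC5.

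Repeated sequence limits what the reads can show at some members, since the authors removed reads that did not map uniquely. Words of 50 bases were counted because the labels give single-end reads of that length. The methods describe paired-end libraries, for which such words would be a poorer guide to unique mapping. In the 500 bp before the start codon 31.0% of the 50-base words of PCDHB8 and PCDHB13 occurred elsewhere in the region, 15.3% of those of PCDHGB6 and PCDHGB7 and 7.54% of those of PCDHGB4 and PCDHGB5. PCDHB8 and PCDHB13 had no peak and PCDHGB6 and PCDHGB7 had peaks in both lists, and the part of repeats in these differences was not tested. In these 500 bp the share was 0 in all other members. Under the PCDHGB5 peak, found in the PDS list only, it was 28.7%, the highest of the 48 positions. Over the whole zone, coding exon included, it was lower in PCDHGB6 (6.92%) and PCDHGB7 (7.25%), and the highest shares were 39.3% in PCDHB8, 38.1% in PCDHB13, 30.6% in PCDHB10 and 28.0% in PCDHB9. In the alpha cluster it was 24.4% in PCDHA6, 22.5% in PCDHA7, 21.5% in PCDHA8 and 24.6% in PCDHA9. PCDHA7 and PCDHA9 are among the genes with a high-scoring exon element and no peak, and the part of repeats in this was not tested.

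Most non-clustered protocadherins, which are single genes elsewhere in the genome and have no variable exons, were not bound at their starts. Of a list of 15 such genes and relatives, PCDH1, PCDH12 and CDHR2, which lie on chromosome 5 outside the clusters, had a peak within 1 kb of the gene start in both lists, and the other 12 had none in either. The share of 20.0% is near that of all coding genes.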

How the data were processed

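CTCF ChIP-seq reads of K562 cells were mapped by the authors to hg19 with Bowtie2 2.2.3 (version also in the submitters' processing notes), reads that were duplicated, not uniquely mapped or of low mapping quality were removed, and peaks were called with PePr over IgG, jointly on both replicates of a condition. The deposited score of each peak, a rescaled fold, was not used. The fold enrichment over IgG was computed by the authors and served to rank peaks within a list. The p-value of a peak, also by the authors, decided which 50% of a list remained where an alternative kept the most significant peaks and was set beside the fold rank at promoters bound in both lists after its values were seen, and the deposited adjusted p-value was not used.

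Genes were taken from GENCODE 44 on GRCh37, with the longest coding sequence of each gene, and overlaps of at least 1 bp counted. The CTCF consensus of 15 bases that the paper's introduction quotes was extended by 3 bases on both sides into a weight matrix from 7760 exact matches in peaks outside the region, and its threshold was set on 13174 windows 2 kb beside peaks. Named are all members with a peak, genes that hold or neighbour peaks of the region, and a list of 15 non-clustered relatives. The members and lists were chosen with earlier results of these data known, the CGCTG letters, the exon window and the rebuilt matrix after their values were seen, and so were the genes whose sequences are printed, from those that the rule allows or with the promoter and exon elements. Motif search and overlap were tested on simulated data. Sequences were read with pyfaidx 0.9.0.4 and samtools 1.23.1, intervals came from scipy 1.17.1, and the rest ran in Python 3.11.15 with pandas 2.3.3, numpy 2.4.6 and matplotlib 3.10.9. Depth per sample is unknown, and data of the paper other than the peak lists were not analysed here.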

Additional observations from a re-analysis of the deposited data

How the results depend on the processing

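Of 51 alternative settings 41 left a value within 1.5 times the main count or within the interval of the main share. When each list was reduced to the 50% of its peaks that had the lowest p-values, which by construction keeps fewer peaks, the region held 21 control and 20 PDS peaks. Of the 53 zones, 9 then had a peak in the control list, 9 in the PDS list and 7 in both, where 9.17% and 9.68% of all coding genes had a control or PDS peak. Of the 53 gene starts, 9 had a peak within 1 kb in each list, and no share of all coding genes was computed for this count. With centres at most 100 bp apart in place of an overlap, 72.5% of control peaks were shared. With the consensus without mismatch, 7.50% of control peaks held a CTCF match, and the order of the PDS shares in and outside the region turned, to 11.6% against 9.76% from 18.6% against 40.6% with the matrix. The cause was not tested. With the matrix not rebuilt, 7 of the 13 alpha exons held the forward match. Extending the region by 0 or 200 kb kept the peak counts within those limits, and an extension of 0 kb also the shared shares. The other zone and window definitions, merging of peaks, the G4 loops and the CGCT letters did so too. CGCT stood before 50 of the 53 members. Without extension, 16.1% of control peaks and 5.88% of PDS peaks held a CTCF match. The PDS value lies outside the interval of the main share (9.74 to 32.6%). No paired analysis was possible because each list was called on both replicates together and holds no values per replicate, and for the same reason no replicate could be left out. Depth is unknown, so peaks missing from a list may have fallen short of its threshold, which was a p-value of 1e-05 as the lists show and not the looser cutoff in the methods.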
